A study of Homo sapiens with 12 samples.

Results

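Interferon-stimulated genes (ISGs) are the genes that a cell switches on when interferon binds its receptor, and 51 of them were followed here through a kidney cell line in which the tumor suppressor FLCN had been knocked down. The members came from a list of gene symbols whose rule uses no measured value, although the list was drawn up with earlier results of these data known, and all 51 were found among the 58288 gene identifiers of the count table. Of these, 41 had enough counts to be tested, together with 13959 genes in all. RNA was sequenced from HK-2 cells, an immortalized line of the human proximal tubule, that stably carried either a nontarget shRNA or an shRNA against FLCN. Both kinds of cell were harvested in short-term culture (under 30 passages) and in long-term culture (labelled as above 120 passages, while the study's methods give a lower limit), which gave 4 groups of 3 libraries. All 12 libraries were grown in the same serum-containing medium, and the labels name no added interferon or virus. The stable lines had been grown from clones, and the labels do not say which clone gave which library. Neither knockdown nor passage can therefore be told apart from clone.

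Interferons are secreted proteins made after sensors such as RIG-I (DDX58), MDA5 (IFIH1) or TLR3 meet foreign nucleic acid. Type I interferon engages the IFNAR1 and IFNAR2 receptor, the kinases JAK1 and TYK2 phosphorylate STAT proteins such as STAT2, and these join IRF9 in the factor ISGF3. ISGF3 binds the interferon-stimulated response element (ISRE) in front of ISGs, whereas the gamma-activated site (GAS) serves chiefly the response to interferon gamma. Many ISGs keep a low level of expression without any added interferon, and that resting level is what was measured here.

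The response elements were looked up because the members are grouped by how they are regulated. The 250 bases before each RefSeq start (GRCh38.p14) were searched on both strands for the ISRE core, GAAANNGAAA, and for the GAS core, TTCNNNGAA. Of the 41 members with an entry, 27 (65.9%) held an ISRE core, against 3.71% of 27305 genes, and 14 (34.1%) held a GAS core, against 8.09%. Among the 29 matched members that were lower in at least 1 of the 4 comparisons between groups given below, 21 held an ISRE core, as did 2 of the 5 tested members called in none. The stretches below are those of 10 of the members that held a core and whose values are given by library further on. Each is the core nearest to the start with up to 10 bases on either side, 5′ to 3′ on the gene's strand, and the capitals mark the core.
IFIT1: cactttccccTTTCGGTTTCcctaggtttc
OAS3: agccgggcggGAAAACGAAAcc
MX1: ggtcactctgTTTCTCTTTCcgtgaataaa
GBP1: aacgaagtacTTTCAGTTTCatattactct
PLSCR1: cgggaaccggGAAAAGGAAAccgtgttgtg
HERC5: aaacattatgTTTCGTTTTCcactggagct
RSAD2: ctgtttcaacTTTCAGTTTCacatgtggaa
IFI6: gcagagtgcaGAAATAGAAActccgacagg
IFI44: gcacactgagTTTCAGTTTCctttctct
IFI44L: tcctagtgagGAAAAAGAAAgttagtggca
The stretch of IFIT1 lies at chr10:89392510-89392539 on the plus strand and that of GBP1 at chr1:89065316-89065345 on the minus strand. The core of OAS3 ended 3 bases before its start, and that of RSAD2, in front of the second of its RefSeq starts, ended 136 bases before. OAS1 and CMPK2 had an entry but no ISRE core in it. OASL, IFIT2 and GBP2 had no entry. A match describes these letters only and was not tested for binding.

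The libraries held between 5825779 and 8991051 counts. The targeted gene itself was lower in both knockdowns. In short-term culture FLCN was at 12.7, 16.7 and 16.5 CPM (counts scaled to a common library total with TMM factors) in the nontarget libraries and at 5.95, 6.58 and 5.66 CPM in the knockdown libraries. After long-term culture these were 9.92, 11.9 and 12.2 CPM and 6.70, 6.31 and 7.97 CPM. Its log2 fold change on knockdown was −1.29 (SE 0.174, adjusted p = 1.12e-04) in short-term and −0.68 (SE 0.173, adjusted p = 0.00611) in long-term culture. Of 15 proximal tubule markers only 6, among them PAX8, GGT1 and MME, exceeded 1 CPM in the mean over all libraries, and LRP2, HNF4A, SLC22A6 and SLC22A8 had no count in any library. The sum of the 15 was between 263.9 and 302.8 CPM in nontarget and between 361.5 and 385.7 CPM in knockdown cells of short-term culture, and between 321.8 and 383.4 CPM and between 323.9 and 369.6 CPM after long-term culture. Of 6 markers of epithelium and cultured tubule, 5 exceeded that mean, with KRT8 highest, while CDH1 had 26 counts in all and 0 in long-term knockdown cells. The sum of these 6 was between 3404.5 and 3766.1 CPM in nontarget and between 3872.6 and 4860.9 CPM in knockdown cells of short-term culture, and between 3822.8 and 4245.3 CPM and between 3205.5 and 4275.8 CPM after long-term culture. Both sums were thus higher in the short-term knockdown without overlap. They were also higher in long-term than in short-term nontarget cells without overlap. Their part in those comparisons was not tested. KRT19 had a mean of 32.8 CPM in nontarget and 32.6 CPM in knockdown cells of short-term culture. After long-term culture it had 5.07 and 4.19 CPM. In nontarget cells VIM was also lower at the long time (994.8 CPM in short-term and 839.2 CPM in long-term culture). There KRT8 (1680.3 and 1996.8 CPM), KRT18 (644.8 and 876.0 CPM), CDH2 (206.9 and 278.7 CPM) and CDH1 (0.137 and 0.739 CPM) were higher. In knockdown cells only CDH2 was higher at the long time (164.8 and 221.6 CPM). The part of these markers in the passage comparisons was not tested. None of 7 leukocyte markers and none of 3 endothelial markers exceeded that mean, and PTPRC, CD3E and CLEC4C were at 0. The summed leukocyte markers ranged from 0.456 to 1.10 CPM over the nontarget and from 1.52 to 1.95 CPM over the knockdown libraries of short-term culture, and from 0.465 to 1.16 CPM and 0.693 to 1.19 CPM after long-term culture. The leukocyte sum was thus higher in the short-term knockdown without overlap. The 3 endothelial markers summed to between 0.683 and 1.10 CPM in nontarget and between 0.354 and 1.01 CPM in knockdown cells of short-term culture, and to between 0.929 and 2.20 CPM and between 0 and 0.170 CPM after long-term culture. They were thus lower in the long-term knockdown without overlap, and the part of either list in the comparisons was not tested. Of 5 fibroblast markers 2 exceeded the mean of 1 CPM, LUM and COL1A1. The sum of the 5 was between 45.2 and 46.3 CPM in nontarget and between 50.9 and 53.1 CPM in knockdown cells of short-term culture, and between 17.3 and 22.5 CPM and between 27.0 and 35.4 CPM after long-term culture. It thus fell with passage, as most members did, and was higher in both knockdowns without overlap. Its part in the comparisons was not tested.

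ISG expression stood highest in short-term nontarget cells and lowest in long-term FLCN knockdown cells. Of the 41 tested members, 34 had their highest group mean in short-term nontarget cells and 37 had their lowest in long-term knockdown cells. Summed over all 51 members, ISG transcripts in short-term culture amounted to 1905 ± 447.2 CPM in nontarget and 1459 ± 179.0 CPM in knockdown cells (mean ± SD, n = 3). After long-term culture they amounted to 1224 ± 84.6 CPM and 920.2 ± 41 CPM. In these bulk libraries, fewer cells expressing a gene and less of its RNA per cell cannot be told apart.

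**Figure D1:**
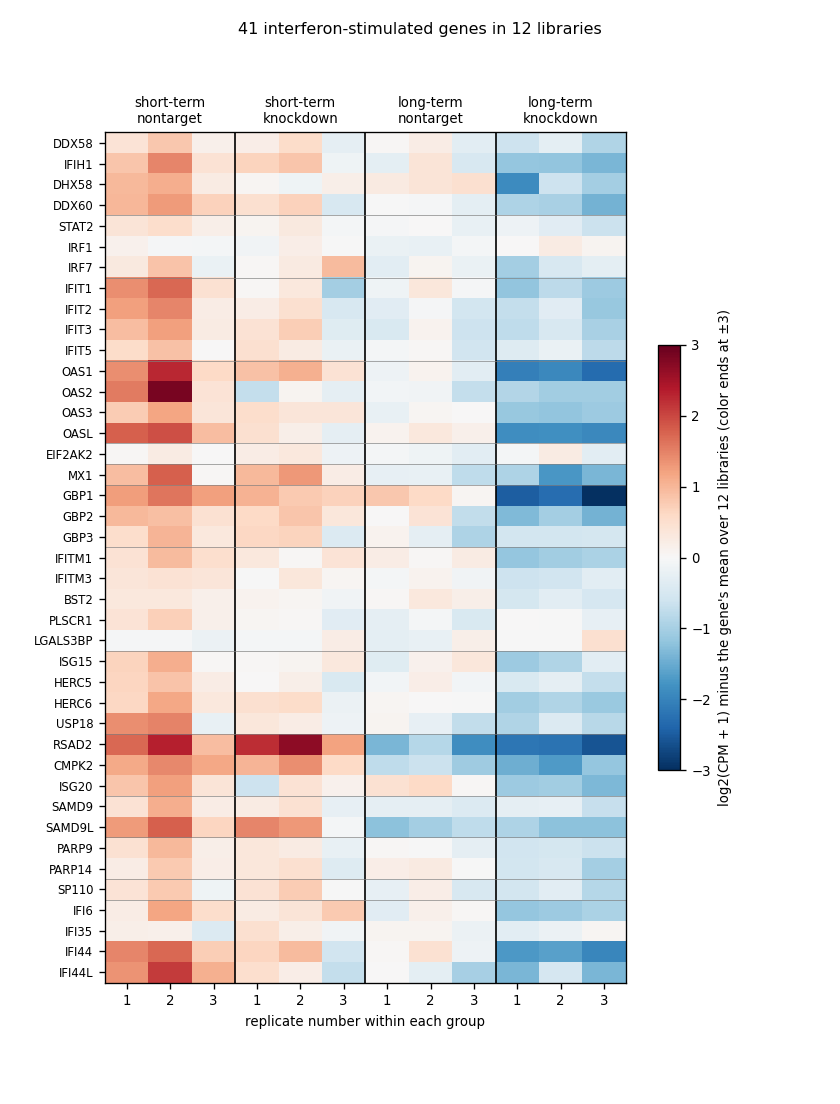
Level of each of the 41 tested members (rows, ordered by role) in each of the 12 libraries (columns), as log2(CPM + 1) minus the gene's mean over all 12 libraries, with the color scale ending at ±3. Red prevails in the short-term nontarget columns and blue in the long-term knockdown columns, and within each group the columns of replicate 3 are mostly bluer than those of replicate 2.

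The libraries of one group did not stand at one level. For each library, the median over the 41 members of the deviation of log2(CPM + 1) from the gene's own mean was taken. For replicates 1 to 3 it was 0.66, 1.09 and 0.25 in short-term nontarget cells, whereas short-term knockdown libraries had 0.34, 0.36 and −0.11. Long-term nontarget libraries had −0.07, 0.06 and −0.26, and those of the long-term knockdown had −0.93, −0.57 and −0.98. The same median over all tested genes lay between −0.01 and 0.01 in every library. The library of short-term nontarget replicate 2 was the highest of its group for 37 of the 41 members, against 30.9% of all tested genes. That of replicate 3 was the lowest for 37, against 35.7%. Replicate 2 exceeded replicate 3 in all 4 groups for 26 members (63.4%), against 13.2% of all tested genes. What the replicate numbers stand for is not stated, and the part of this order in the comparisons below was not tested except by the fits with replicate number as a block and by leaving out libraries.

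**Figure D2:**
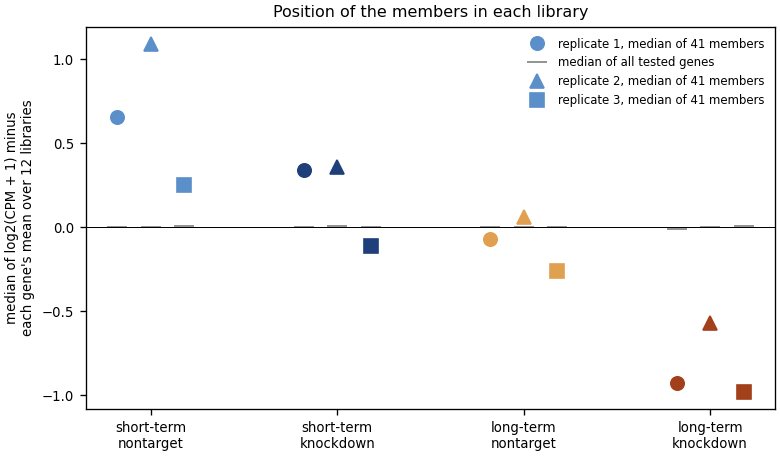
Median over the 41 members of log2(CPM + 1) minus each gene's mean over 12 libraries, on the vertical axis, for each library, with groups on the horizontal axis, symbols for replicate number and grey bars for the same median over all tested genes. The member medians fall from between 0.25 and 1.09 in short-term nontarget to between −0.98 and −0.57 in long-term knockdown libraries, and replicate 3 is the lowest of each group.

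Short-term FLCN knockdown was accompanied by lower levels of 7 ISGs, or of 17 with replicate number as a block. In short-term knockdown against short-term nontarget cells, 7 of the 41 members were lower (adjusted p below 0.05, edgeR quasi-likelihood test over all genes), against 4.71% of all genes tested. They were IFIT1, IFIT2, OAS2, OASL, HERC5, IFI44L and PLSCR1. No member was higher, against 5.62% of all genes. None was higher at an unadjusted p below 0.05 or by DESeq2 either. In the edgeR fit with the replicate block 17 were lower, against 7.75% of all genes. There 1, RSAD2, was higher (adjusted p = 0.0466), against 9.15%. Without the count filter 12 of 50 members were lower. The median log2 fold change of the 41 members was −0.42, against 0.00 over all genes, and 34 of them lay below 0. The largest well-covered falls were those of IFI44L (log2 fold change −1.52, SE 0.338, adjusted p = 0.00883), OASL (−1.50, SE 0.232, adjusted p = 4.04e-04) and IFIT1 (−1.41, SE 0.307, adjusted p = 0.00774). The median change of the 40 tested genes nearest to each of these 3 on its chromosome was between 0.04 and 0.22. Leaving out 1 library moved the count of 7. Only 3 members passed without short-term nontarget replicate 2, and 4 passed without short-term nontarget replicate 1 or without short-term knockdown replicate 1 or 3, while 13 passed without short-term nontarget replicate 3. IFIT1, OAS2 and OASL passed whichever library was left out, but the call of IFIT1 was lost without the count filter (adjusted p = 0.0983) and in a fit of only the groups compared (adjusted p = 0.111). The call of IFI44L was lost without short-term nontarget replicate 2 (adjusted p = 0.0536).

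Long-term FLCN knockdown went with lower levels of 19 ISGs. Against long-term nontarget cells, 19 of 41 members were lower, against 15.8% of all genes. No member was higher, against 13.7% of all genes, and none was at an unadjusted p below 0.05 or by DESeq2. The members' median was −0.82, against 0.00 over all genes, and 37 lay below 0, against 49.8% of all genes. The lower members took in 3 of 4 RNA sensors, 3 of 4 OAS genes and 2 of 3 guanylate-binding protein genes. GBP1 fell most (log2 fold change −3.71, SE 0.317, adjusted p = 1.49e-07), and the 40 genes around it had a median change of −0.10. Among members with a mean of at least 30 counts in these libraries, OASL followed at −2.40 (SE 0.309, adjusted p = 1.43e-05) and IFI44 at −2.08 (SE 0.389, adjusted p = 7.96e-04). Same-numbered libraries of these 2 groups deviated together, and with replicate number as a block 30 members were lower (against 19.4% of all genes) and 1, LGALS3BP, was higher, against 17.4% of all genes (log2 fold change 0.27, adjusted p = 0.0444). The 11 members gained as lower were DDX58, STAT2, IFIT2, IFIT3, OAS2, MX1, HERC5, RSAD2, PARP9, SP110 and IFI44L, with changes in the paired fit from −1.75 for RSAD2 to −0.29 for STAT2. Leaving out 1 library at a time, 14 of the 19 calls held in all 6 fits, those of IFIH1, IFIT1, IFITM3, ISG15 and CMPK2 being the exceptions. Without the count filter the calls of IFIT1 (adjusted p = 0.153) and ISG15 (adjusted p = 0.0945) were lost, as was that of CMPK2 with DESeq2 (adjusted p = 0.0513). Without long-term nontarget replicate 3, 1 member was higher.

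Long-term culture went with lower ISG levels, also in the cells without FLCN knockdown. In long-term against short-term nontarget cells, 24 of 41 members were lower, against 4.38% of all genes, and all 41 had a fold change below 0, against 48.1% of all genes. No member was higher, against 3.17% of all genes, and none was at an unadjusted p below 0.05 or by DESeq2. The members' median was −0.77, against 0.01 over all genes. All 4 OAS genes, 3 of 4 IFIT genes, both SAMD9 genes and all 3 guanylate-binding protein genes were lower. The log2 fold change of RSAD2 was −3.56 (SE 0.489, adjusted p = 2.87e-04) and that of CMPK2 −2.55 (SE 0.297, adjusted p = 3.03e-05). This comparison leans on single libraries. Without short-term nontarget replicate 2, 10 members were lower, without long-term nontarget replicate 3, 11, without short-term nontarget replicate 1, 14, and without long-term nontarget replicate 1, 15. Only 9 of the 24 calls held in all 6 fits, namely those of DDX60, OAS1, OAS2, OAS3, OASL, RSAD2, CMPK2, SAMD9L and IFI44L. Without the count filter the calls of IFIT1, IFIT2 and IFIT3 were lost (adjusted p = 0.183, 0.0923 and 0.167), and at a mean of at least 10 CPM those of GBP3 (0.0518) and IFI6 (0.0569).

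In the FLCN knockdown cells, long-term against short-term culture gave the most changes. There 30 of 41 members were lower, against 15.2% of all genes. No member was higher, against 11.5% of all genes, and none was at an unadjusted p below 0.05 or by DESeq2. The members' median was −1.13, against 0.01 over all genes. All 4 RNA sensors, all 3 guanylate-binding protein genes and all 3 nucleotide and RNA enzymes (RSAD2, CMPK2 and ISG20) fell. The log2 fold change was −5.67 for RSAD2 (SE 0.584, adjusted p = 3.44e-06), −4.06 for GBP1 (SE 0.312, adjusted p = 4.83e-08) and −3.70 for OAS1 (SE 0.469, adjusted p = 2.62e-05). Of the 30 calls, 22 held in all 6 fits that leave out 1 library, the exceptions being DDX58, STAT2, IRF7, IFIT1, IFIT3, GBP3, ISG15 and IFI44L. Without the count filter IFIT1, IFIT3 and ISG15 did not pass (adjusted p = 0.253, 0.107 and 0.0700), nor did IFIT1 with DESeq2 (adjusted p = 0.0759). Same-numbered libraries deviated together here as well, and with the replicate block 36 members were lower, against 18.6% of all genes. Those gained were IFIT2, IFIT5, OAS2, HERC5, USP18 and SAMD9, with changes from −1.55 for USP18 to −0.39 for HERC5. The calls in the paragraphs that follow are those without the block.

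**Figure D3:**
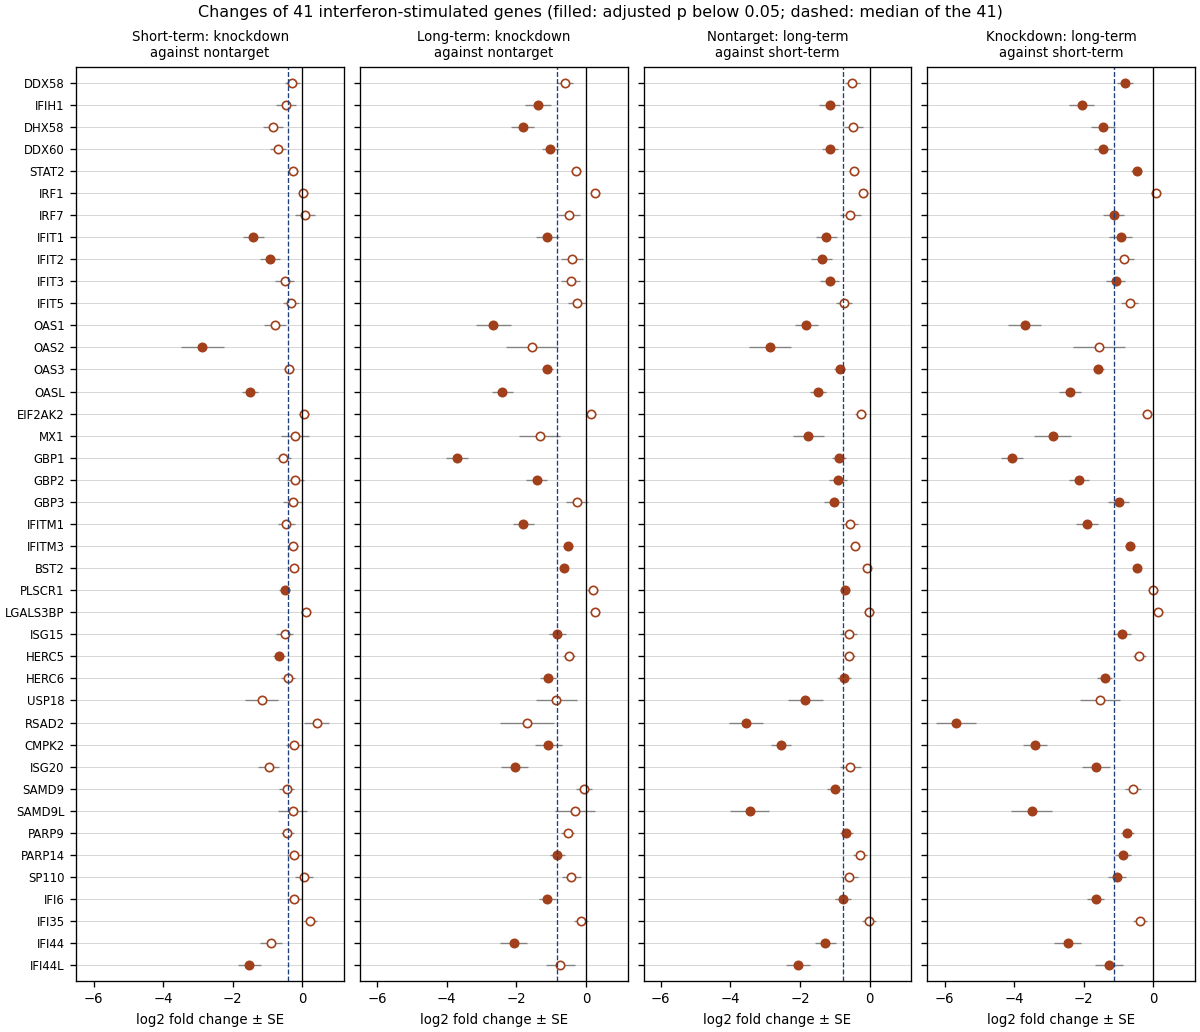
Log2 fold change with SE (horizontal axis) of the 41 tested members (vertical axis) in the 4 comparisons between groups, with filled points for adjusted p below 0.05, a solid line at 0 and a dashed line at the median of the 41 members. The medians lie at −0.42, −0.82, −0.77 and −1.13 from left to right, and no filled point lies to the right of 0.

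Whether the knockdown effect itself changed with passage was tested as an interaction, the long-term log2 effect minus the short-term one. It was more negative in long-term cells for 5 members, GBP1, OAS1, GBP2, OAS3 and IFITM1, which is 12.2%, near the 8.43% of all genes. It was more positive for 1, PLSCR1, against 4.98% of all genes. GBP1 had the largest difference, −3.17 (SE 0.385, adjusted p = 2.01e-05), and its call held in all 12 fits that leave out 1 library. The other 5 calls were lost in at least 2 of those fits, that of IFITM1 also with DESeq2 (adjusted p = 0.0506) and that of PLSCR1 at a mean of at least 10 CPM (adjusted p = 0.0538). The count of 5 became 9 without short-term knockdown replicate 3, 2 without long-term nontarget replicate 2, 1 without short-term nontarget replicate 1 or long-term knockdown replicate 1, and 3 without any 1 of 6 other libraries, short-term nontarget replicate 2 and long-term knockdown replicate 2 being the exceptions. The members' median difference was −0.33, against 0.00 over all genes. Over all tested genes, same-numbered libraries deviated together among 3 of the 4 groups in this test, short-term nontarget cells being the exception. With the replicate block 13 members were more negative, against 12% of all genes, those gained being RSAD2, IFI44, IFI6, PARP14, HERC6, BST2, OASL and IFIH1, with differences from −2.16 for RSAD2 to −0.39 for BST2.

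Among the sensors, DDX58 and IFIH1 recognize viral double-stranded RNA and signal through MAVS, DHX58 modulates them, and DDX60 is a related helicase. IFIH1 had a mean of 12.6 ± 4.99 CPM in nontarget and 8.95 ± 3.21 CPM in knockdown cells of short-term culture (SD, n = 3), and of 5.58 ± 2.16 CPM and 1.94 ± 0.215 CPM after long-term culture. Its log2 fold change was −1.37 in the long-term knockdown (adjusted p = 0.0108), −1.15 with passage in nontarget cells (adjusted p = 0.0287) and −2.06 with passage in knockdown cells (adjusted p = 4.16e-04). In the long-term knockdown DHX58 changed by −1.82 (adjusted p = 5.11e-04) and DDX60 by −1.02 (adjusted p = 0.00628), where the 40 genes around DDX60 had a median change of −0.50. DDX58 changed less. Its log2 fold change was −0.59 in the long-term knockdown (adjusted p = 0.0649) and −0.80 with passage in knockdown cells (adjusted p = 0.0157), a call that was lost in 3 of the 6 fits without 1 library. No sensor passed in the short-term knockdown, where their changes lay between −0.85 and −0.29.

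Of the 4 transcription factors, 3 were tested. STAT2, the ISGF3 subunit, had means of 50.5 CPM in nontarget and 42.2 CPM in knockdown cells of short-term culture, and of 36.8 and 30.1 CPM after long-term culture. It passed only with passage in knockdown cells (−0.48, adjusted p = 0.0224). That call was lost without short-term knockdown replicate 2 or long-term knockdown replicate 3, with adjusted p up to 0.106, and in a fit of only the groups compared (adjusted p = 0.0520). IRF1, a factor that binds ISRE-like elements, lay between 16.0 and 22.3 CPM in all 12 libraries and passed in no comparison. IRF7, which amplifies interferon alpha production, changed by −1.13 with passage in knockdown cells (adjusted p = 0.0105). IRF9 had only 7 counts over all libraries and was not tested. Of its exonic bases 48.4% are shared with another annotated gene on the same strand, AL136295.5, and how shared reads were counted is not stated.

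The IFIT genes encode proteins that bind viral RNA and block its translation. In short-term culture IFIT1 was at 94.0, 119.2 and 48.4 CPM in nontarget replicates 1 to 3 and at 36.1, 44.3 and 16.8 CPM in the knockdown. After long-term culture these were 32.2, 44.6 and 34.2 CPM and 14.9, 20.0 and 15.9 CPM. Knockdown and nontarget libraries did not overlap at either time. The long-term log2 fold change was −1.11 (SE 0.329, adjusted p = 0.0181). It did not pass without long-term nontarget replicate 2 or without long-term knockdown replicate 1 or 3, with adjusted p up to 0.0965, nor without the count filter (adjusted p = 0.153).

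IFIT2 was at 71.8, 84.7 and 35.5 CPM in nontarget and at 35.6, 42.3 and 21.4 CPM in knockdown cells of short-term culture. Those groups overlapped, and the change of −0.94 (SE 0.286, adjusted p = 0.0493) was lost without short-term nontarget replicate 1 or 2 and without short-term knockdown replicate 1 or 3. It was also lost with DESeq2 (adjusted p = 0.0917), without the count filter (adjusted p = 0.253), at a mean of at least 10 CPM (adjusted p = 0.0514) and in a fit of only the groups compared (adjusted p = 0.142). In long-term nontarget cells IFIT2 was at 23.5, 29.6 and 20.4 CPM, a change with passage of −1.38 (SE 0.292, adjusted p = 0.00791). IFIT3, per exonic length the highest of the family with 49.1 CPM per kb in short-term nontarget cells, passed in neither knockdown comparison (adjusted p = 0.282 and 0.278) and was lower with passage in nontarget (−1.15) and knockdown cells (−1.08). IFIT5 passed in no comparison. In the long-term knockdown only IFIT1 of the 4 passed without the block.

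The OAS genes encode 2′-5′-oligoadenylate synthetases, which activate RNase L, apart from OASL, which lacks the enzyme activity and binds RIG-I. OASL in short-term culture was at 35.1, 38.9 and 18.7 CPM in nontarget and at 13.5, 10.7 and 7.61 CPM in knockdown libraries. After long-term culture it was at 10.2, 11.9 and 10.5 CPM and at 1.85, 1.91 and 1.70 CPM. The groups did not overlap in any of the 4 comparisons. With passage the log2 fold change of OASL was −1.49 in nontarget cells (SE 0.230, adjusted p = 4.90e-04) and −2.39 in knockdown cells (SE 0.310, adjusted p = 1.99e-05).

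OAS1 in short-term culture was at 16.4, 30.4 and 8.96 CPM in nontarget and at 11.1, 12.9 and 7.96 CPM in knockdown libraries, which overlapped (−0.78, adjusted p = 0.144). The long-term levels were 4.96, 6.04 and 4.27 CPM in nontarget libraries, all above the 0.578, 0.734 and 0.339 CPM of the knockdown, which rested on 12 counts. The log2 fold change there was −2.66 (SE 0.504, adjusted p = 8.38e-04). It differed from the short-term one by −1.88 (SE 0.566, adjusted p = 0.0380), a call that was lost in 9 of the 12 fits without 1 library. With passage in nontarget cells OAS1 changed by −1.82 (SE 0.337, adjusted p = 0.00298).

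OAS3 was per exonic length the highest of the family, with 21.5 CPM per kb in short-term nontarget cells. In short-term culture it was at 171.1, 230.2 and 130.4 CPM in nontarget and at 145.9, 130.0 and 131.1 CPM in knockdown libraries, which overlapped (−0.38, adjusted p = 0.125). After long-term culture it was at 86.3, 105.0 and 102.2 CPM and at 45.3, 43.6 and 46.8 CPM. The long-term groups were apart, with a log2 fold change of −1.11 (SE 0.158, adjusted p = 4.11e-05). The interaction was −0.72 (SE 0.216, adjusted p = 0.0339), lost in 7 of the 12 fits without 1 library. OAS2 in short-term culture was at 5.06, 13.8 and 1.73 CPM in nontarget and at 0.253, 1.17 and 0.708 CPM in knockdown libraries, which is 139 counts against 14. The groups did not overlap, but nontarget replicate 2 held most of the counts, and the fitted log2 fold change of −2.87 (SE 0.611, adjusted p = 0.00660) was −1.93 without it and −3.31 without nontarget replicate 3. After long-term culture it had 15 and 1, a ratio of 14.8 with a 95% interval from 2.28 to 623.2 that covers counting error only.

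The guanylate-binding proteins are GTPases induced above all by interferon gamma. GBP1 in short-term culture was at 27.7, 35.8 and 27.2 CPM in nontarget and at 23.8, 19.7 and 18.4 CPM in knockdown libraries. In the long-term libraries it stood at 20.1, 17.3 and 11.5 CPM and at 1.16, 1.47 and 0.170 CPM, which is 351 counts against 21. The short-term groups did not overlap, but the difference of −0.54 did not pass (adjusted p = 0.128).

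GBP2 in short-term culture was at 14.1, 13.5 and 9.58 CPM in nontarget and at 10.6, 12.7 and 8.85 CPM in knockdown libraries. After long-term culture it was at 6.83, 9.29 and 3.62 CPM and at 2.08, 2.79 and 1.87 CPM. The long-term groups did not overlap and differed by −1.42 (SE 0.308, adjusted p = 0.00191), while the short-term groups overlapped (−0.20, adjusted p = 0.692). With passage in knockdown cells GBP2 changed by −2.13 (SE 0.296, adjusted p = 3.78e-05). GBP3, their neighbor on chromosome 1, had log2 changes of −0.28 and −0.25 in the short-term and long-term knockdown (adjusted p = 0.622 and 0.607), and was lower with passage in both kinds of cell.

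RSAD2 encodes viperin, which makes a chain-terminating nucleotide, and CMPK2, its divergent neighbor on chromosome 2, encodes a mitochondrial nucleotide kinase. RSAD2 in short-term culture was at 18.9, 29.3 and 10.4 CPM in nontarget and at 26.8, 38.0 and 12.9 CPM in knockdown libraries. The long-term levels were 1.34, 2.32 and 0.647 CPM and 0.347, 0.293 and 0 CPM, the last group holding 5 counts. In the short-term knockdown its change was 0.41 (adjusted p = 0.546), or 0.40 with the replicate block (adjusted p = 0.0466), and RSAD2 had its highest mean there. CMPK2 in short-term culture was at 7.24, 9.11 and 7.38 CPM in nontarget and at 6.58, 8.77 and 4.60 CPM in knockdown libraries, against 1.21, 1.39 and 0.776 CPM and 0.347, 0.147 and 0.678 CPM after long-term culture. For both genes the long-term libraries lay below all short-term ones. The exons of the pair share only 0.290% of those of RSAD2. ISG20, an exonuclease, changed by −2.05 in the long-term knockdown (SE 0.380, adjusted p = 5.03e-04) and by −1.64 with passage in knockdown cells (adjusted p = 0.00493).

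MX1, a dynamin-like GTPase, was in short-term culture at 6.42, 12.5 and 2.99 CPM in nontarget and at 6.58, 8.48 and 3.54 CPM in knockdown libraries. After long-term culture it was at 2.28, 2.32 and 1.29 CPM and at 1.04, 0.147 and 0.509 CPM. The change with passage in nontarget cells, −1.76 (SE 0.454, adjusted p = 0.0261), was lost in 5 of 6 fits without 1 library, and that in knockdown cells, −2.89 (adjusted p = 7.91e-04), in none. SAMD9L, encoded beside SAMD9 on chromosome 7, fell from 98 counts in short-term to 4 in long-term nontarget cells (−3.44, adjusted p = 8.76e-04), and the 40 genes around it had a median change of −0.41. From short-term to long-term knockdown cells it went from 83 to 2 counts, a ratio of 43.5 with a 95% interval from 11.7 to 365.0. SAMD9 itself changed by −0.99 and −0.59 in these comparisons (adjusted p = 0.00962 and 0.0632).

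ISG15, a ubiquitin-like protein, had 130.6 CPM per kb in nontarget and 91.6 in knockdown cells of short-term culture and 86.3 and 49.2 after long-term culture. Per exonic length it was the highest member in short-term nontarget cells, ahead of BST2 with 116.0 CPM per kb. BST2 was highest in short-term knockdown (97.7 CPM per kb) and long-term nontarget cells (110.1), and LGALS3BP in long-term knockdown cells (77.9). In the long-term knockdown ISG15 changed by −0.82 (SE 0.251, adjusted p = 0.0224), a call that was lost in 4 of 6 fits without 1 library. Of the enzymes that attach or remove it, HERC5, the ISG15 ligase, was in short-term culture at 112.1, 130.2 and 83.4 CPM in nontarget and at 72.2, 80.6 and 51.7 CPM in knockdown libraries. These groups did not overlap, with a log2 fold change of −0.67 (SE 0.175, adjusted p = 0.0212) that was lost without short-term nontarget replicate 1 or 2 and without short-term knockdown replicate 1 or 3. HERC6 changed by −1.09 in the long-term knockdown (adjusted p = 0.00104). USP18, which removes ISG15 and dampens IFNAR2 signaling, passed only with passage in nontarget cells (−1.85, adjusted p = 0.0298).

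The membrane proteins differed among themselves. IFITM1 and IFITM3 hinder viral fusion and BST2 (tetherin) holds virions at the cell surface. IFITM1 was at 0.462, 0.587 and 0.678 CPM in long-term knockdown and at 2.81, 2.32 and 2.85 CPM in long-term nontarget cells, a log2 fold change of −1.80 (SE 0.307, adjusted p = 2.36e-04). It shares 32.5% of its exonic bases with IFITM2, and the IFITM genes are near copies of each other, so their counts are uncertain. In the long-term knockdown BST2 changed by −0.64 (adjusted p = 1.71e-04) and IFITM3 by −0.51 (adjusted p = 0.0105). PLSCR1, a phospholipid scramblase, was in short-term culture at 55.5, 68.9 and 46.8 CPM in nontarget and at 43.8, 43.1 and 33.1 CPM in knockdown libraries, and after long-term culture at 34.6, 39.8 and 30.0 CPM and at 42.3, 41.7 and 34.9 CPM. The short-term groups did not overlap and the long-term groups did. Its short-term change of −0.51 (SE 0.153, adjusted p = 0.0430) was lost in 5 of 6 fits without 1 library and at a mean of at least 10 CPM (adjusted p = 0.0530), and its interaction of 0.70 (SE 0.218, adjusted p = 0.0420) in 7 of 12. The 40 genes around it had a median interaction of 0.36. LGALS3BP, a secreted glycoprotein, lay between 202.4 and 345.3 CPM and passed in no comparison without the block.

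Of the remaining members, IFI44L in short-term culture was at 24.6, 41.5 and 20.0 CPM in nontarget and at 13.2, 10.5 and 5.13 CPM in knockdown libraries, and after long-term culture at 9.11, 7.12 and 4.01 CPM and at 2.89, 6.02 and 2.88 CPM. The short-term groups did not overlap and the long-term groups did. Its neighbor IFI44 in short-term culture was at 38.4, 46.8 and 22.8 CPM in nontarget and at 21.4, 26.9 and 8.67 CPM in knockdown libraries, and after long-term culture at 13.8, 18.7 and 12 CPM and at 3.35, 3.67 and 2.71 CPM. Here the long-term groups were apart and the short-term groups overlapped. IFI6, a mitochondrial and endoplasmic reticulum protein, was at 10.9, 15.6 and 14.5 CPM in long-term nontarget and at 5.78, 6.02 and 6.78 in long-term knockdown, a log2 fold change of −1.11 (SE 0.251, adjusted p = 0.00271). PARP14 changed by −0.82 in the long-term knockdown (adjusted p = 0.00895). With passage in knockdown cells PARP9 changed by −0.75 (adjusted p = 0.00672) and SP110, a nuclear body protein, by −1.04 (adjusted p = 0.00720), with a median of −0.39 over the 40 genes around SP110. EIF2AK2 (PKR), the kinase that stops translation on double-stranded RNA, lay between 48.1 and 75.0 CPM and passed in no comparison, nor did IFI35.

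The 10 members below the count filter were IRF9, MX2, IFITM2, RTP4, TRIM22, IFI27, XAF1, EPSTI1, CXCL10 and CXCL11. In short-term culture they had together 100 counts in nontarget and 56 in knockdown cells, and after long-term culture 38 and 17, which is 5.00, 2.68, 1.79 and 0.780 CPM of the summed library totals. IFI27 had 27, 7, 8 and 1 counts in that order, TRIM22 27, 12, 7 and 1, and EPSTI1 20, 20, 6 and 1. IFITM2 had 7, 1, 10 and 11. The chemokine genes CXCL10 and CXCL11 had 15 and 6 counts in all. XAF1 was at 0, which allows up to 0.0357 CPM over all 12 libraries (3 counts, for counting error only), and 38.3% of its exonic bases are shared with a gene on the other strand.

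Of the genes around the members, the ligands were nearly silent. Among 11 interferon genes 9 had no count in any library, and the other 2, IFNB1 and IFNL3, had 5 counts together. Of 44 genes for ligands, receptors, kinases, sensing and limits of the response, 30 were tested. In the short-term knockdown 3 were lower (10.0%, against 4.71% of all genes) and 0 higher by edgeR, against 5.62% of all genes. At an unadjusted p below 0.05, 2 were higher, and by DESeq2 0. The median log2 change of the 30 was −0.01. In the long-term knockdown 2 were higher, against 13.7% of all genes, and 8 lower (26.7%, against 15.8%), with a median of −0.13. With passage in nontarget cells 1 was higher, against 3.17% of all genes, and 3 were lower (10.0%, against 4.38%), with a median of −0.01. In knockdown cells 1 was higher, against 11.5%, and 6 were lower, which is 20.0%, near the 15.2% of all genes, with a median of −0.18.

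JAK1, the kinase shared by the interferon receptors, had a log2 fold change of 0.50 in the long-term knockdown (adjusted p = 3.29e-04), of 0.42 with passage in nontarget cells (adjusted p = 0.00691) and of 0.95 with passage in knockdown cells (adjusted p = 5.26e-07). JAK2, the kinase of the interferon gamma receptor, had a log2 fold change of −0.89 in the short-term knockdown (SE 0.228, adjusted p = 0.0178) and of −0.76 with passage in nontarget cells (SE 0.223, adjusted p = 0.0462). PTPN6, a phosphatase that dampens cytokine receptor signaling, had a log2 fold change of 0.65 in the long-term knockdown (SE 0.177, adjusted p = 0.00962).

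Of 12 tested genes of sensing and induction, 4 were lower in the long-term knockdown (33.3%, against 15.8% of all genes). None was higher, against 13.7%, and 8 did not pass. In long-term nontarget and knockdown cells MB21D1 had means of 34.0 and 27.7 CPM and IFI16 of 24.5 and 32.1 CPM. TLR3, the endosomal sensor of double-stranded RNA, was at 5.23, 3.25 and 4.14 CPM in long-term nontarget and at 0.693, 0.147 and 0 in long-term knockdown cells. Its log2 fold change was −2.89 (SE 0.435, adjusted p = 6.83e-05) and differed from that in short-term cells by −2.67 (adjusted p = 0.00196). The 40 tested genes nearest to TLR3, over 16.8 Mb, had a median change of −1.01 in the same comparison and of −0.98 in the interaction, so its surroundings were lower as well. The genes around IRF2 had a median of −1.04, close to the change of IRF2 itself. The change was −0.63 for TRIM25, a ubiquitin ligase in RIG-I signaling, −0.95 for the kinase gene IKBKE, −1.10 for the interferon lambda receptor gene IFNLR1 and −1.02 for the repressor gene IRF2, with adjusted p between 8.04e-05 and 0.00531. The receptor genes IFNAR1, IFNAR2 and IFNGR1 passed in no comparison. IFNGR2, of the interferon gamma receptor, changed by −0.47 in the long-term knockdown (SE 0.128, adjusted p = 0.0102). SAMHD1, a nucleotide hydrolase that limits viral replication, changed by −0.61 in the short-term and by −0.53 in the long-term knockdown (adjusted p = 0.0107 and 0.0119).

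**Figure D4:**
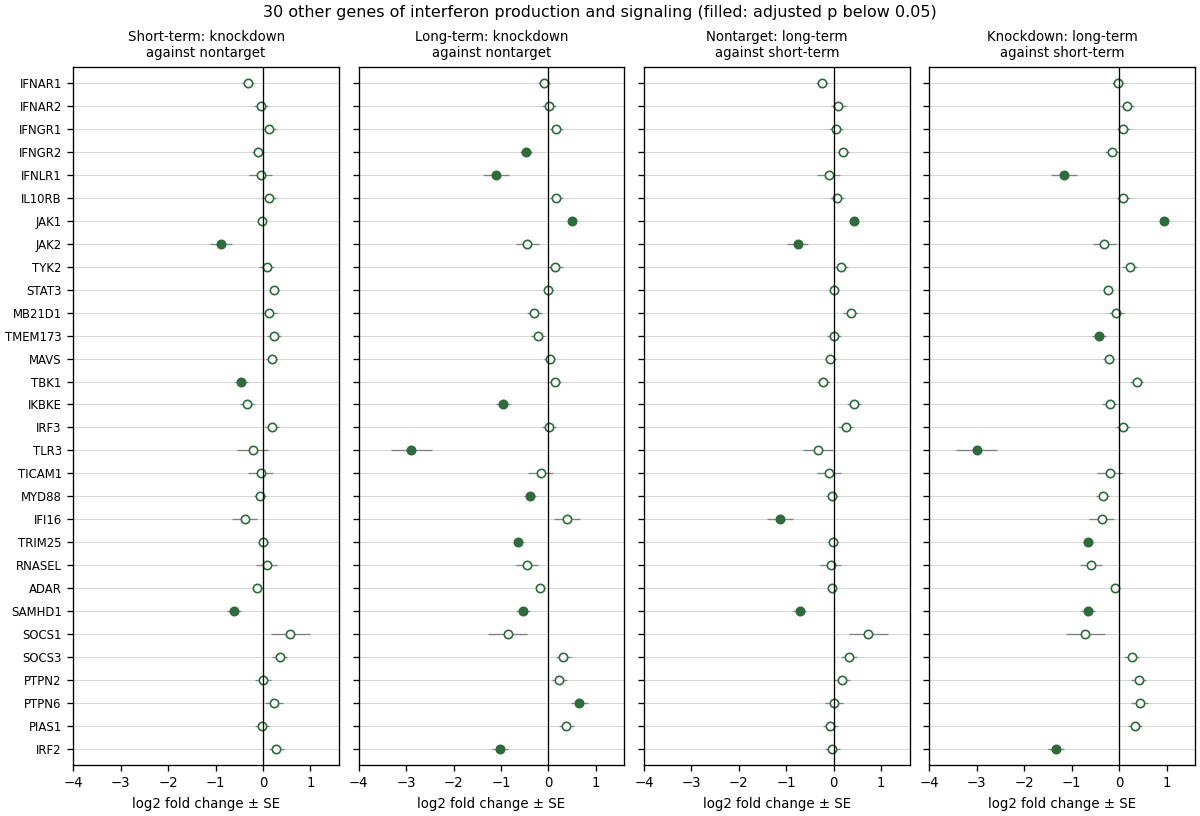
Log2 fold change with SE (horizontal axis) of the 30 tested genes of interferon production and signaling (vertical axis) in the same 4 comparisons, with filled points for adjusted p below 0.05. JAK1 and PTPN6 are the filled points to the right of 0 in the long-term knockdown, at 0.50 and 0.65, and TLR3 lies furthest to the left, at −2.89.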

How the data were processed

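RNA of 12 HK-2 libraries (4 groups of 3, labelled as biological replicates) was prepared with the TruSeq RNA v2 kit and sequenced on a MiSeq. The authors trimmed reads with fastp, mapped them with STAR to GRCh38, assigned them to genes with featureCounts and normalized them with DESeq2 under SARTools. Versions and the strand setting are not given in the sources used here, so reads of overlapping genes, antisense partners and near-identical copies may have been split or dropped. The deposited table holds raw counts per gene, which were analysed here, with totals from 5825779 to 8991051 per library, so members with few counts are imprecise, and intervals cover counting error only. The deposited normalized values (a score of rounded numbers, 99.9983% within 1 of count times a library factor) and the authors' own fold changes and p-values were not used in any test. Of the identifiers, 266 matched no entry of GENCODE 29, which gave symbols and exons.

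Counts were filtered by expression (edgeR's filterByExpr, 13959 genes kept), scaled by TMM and tested over all 12 libraries with edgeR 4.0.16 in R 4.3.3 (robust quasi-likelihood test, two-sided, Benjamini-Hochberg adjustment over all genes tested, limit 0.05). Each group of shRNA cells was compared at each time, long-term with short-term culture within each kind of cell, and the interaction was tested. Comparisons that share a group are not independent. Levels are CPM with TMM factors, log2 levels had a pseudocount of 1, and other tables were made in Python 3.11.15. The scripts were tested on simulated data.

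The members and the gene lists were chosen with earlier results of these data known. Values in every library of a comparison were given for members called there and among its 6 largest falls or rises with a mean of at least 30 counts, and other members were named within their role group. Same-numbered libraries deviated together in long-term nontarget and knockdown cells (correlations 0.28, 0.12 and 0.46) and in short-term and long-term knockdown cells (0.22, 0.29 and 0.46), and short-term knockdown with long-term nontarget cells (0.28, 0.15 and 0.47), which is a pairing seen in the data and not stated by the labels. For short-term nontarget and knockdown cells they were 0.02, 0.11 and 0.05. All these correlations are over all tested genes. The alternatives were DESeq2 1.42.0, its size factors, no filter, a mean of at least 10 CPM, a fold limit, the replicate block, only the groups compared, and leaving out each library. Where a library was left out, 2 remained in its group. How far the 3 replicates of a group were separate cultures is not stated beyond their label, and p-values measure the spread between them. Certain genes of the pathway and marker lists are not reported here and were left out of the counts over those lists.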

Additional observations from a re-analysis of the deposited data

Results flagged for a closer look

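For 6 members the knockdown effect on the log2 scale differed between long-term and short-term cells by the interaction test of edgeR. For 5 of them it was lower, which is 12.2% of the members tested, near the 8.43% of all genes tested. For 1 it was higher, against 4.98%. It was more negative after long-term culture for GBP1 (difference −3.17, adjusted p = 2.01e-05), OAS1 (−1.88, adjusted p = 0.0380), IFITM1 (−1.34, adjusted p = 0.0216), GBP2 (−1.22, adjusted p = 0.0440) and OAS3 (−0.72, adjusted p = 0.0339). PLSCR1 differed by 0.70 in the other direction (adjusted p = 0.0420). Over the 12 fits that each leave out 1 library, the call was lost in 0 for GBP1, in 2 for IFITM1, in 7 for OAS3 and PLSCR1, and in 9 for OAS1 and GBP2. The call of IFITM1 was also lost with DESeq2 (adjusted p = 0.0506) and that of PLSCR1 at a mean of at least 10 CPM (adjusted p = 0.0538).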

How the results depend on the processing

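No call of a member changed direction under any alternative. Of 86 calls, 86 held with DESeq2's size factors, 82 with the DESeq2 test, 76 without the filter and 86 with the replicate block, as did 74 of 77 with only the groups compared, 52 of 57 at a mean of at least 10 CPM and 416 of 552 in the fits that leave out 1 library. The numbers lower were 7 after short-term knockdown, 19 after long-term knockdown, 24 with passage in nontarget cells and 5 for the interaction, against 4, 12, 14 and 2 at a mean of at least 10 CPM, where only 29 members were tested. A fold limit of 2.5 left 4 after short-term knockdown, 9 after long-term knockdown and 3 for the interaction, and 0 higher there, as did the mean of at least 10 CPM. Without the filter there were 12 after short-term knockdown and 9 for the interaction. With the replicate block 17 were lower (against 7.75% of all genes) and 1, RSAD2, higher (against 9.15%) after short-term knockdown, 30 lower and 1 higher after long-term knockdown, and 13 lower for the interaction. The libraries of short-term nontarget cells were not paired with others by label or correlation, the other 3 groups were by correlation, and the cause of these moves was not tested. Leaving out 1 library, the number lower ranged from 3 to 13 after short-term knockdown, from 10 to 26 with passage in nontarget cells and from 1 to 9 for the interaction. The number higher ranged from 0 to 1 after long-term knockdown and from 0 to 1 for the interaction. OAS2 and SAMD9L had under 5 counts in a group, so their fold changes there are imprecise.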
